A study of Mus musculus with 16 samples.

Results

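Glycolysis is represented here by 10 enzyme genes, Hk2, Gpi1, Pfkl, Aldoa, Tpi1, Gapdh, Pgk1, Pgam1, Pkm and Ldha, out of the 22392 genes of the count table. They were chosen by name, and each gene was followed by the transcript with the largest sum over the 16 count columns, among the 55 transcripts that the 10 genes have in the table. The cells were Hepa1-6, a mouse hepatoma line, either WT or carrying a deletion of exon 5 of Eef1d, which encodes a subunit of the elongation factor complex that recharges eEF1A. Each of 3 exon 5 KO lines, KO1, KO2 and KO3, was 1 single-cell clone made with CRISPR/Cas9. KO1 and KO2 were made with the same pair of guides and KO3 shared 1 guide of that pair, whereas WT cells were not described as a clone, so the deletion and the history of each clone cannot be told apart. The deletion was homozygous in each clone, and all lines grew in DMEM with 10% FBS. RNA-seq and Ribo-seq were made from the same lysate with 2 replicates of each line, which gave 16 libraries.

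Glycolysis converts glucose to pyruvate in the cytosol, and lactate dehydrogenase can then reduce pyruvate to lactate while regenerating the NAD+ that the glyceraldehyde-3-phosphate dehydrogenase step uses up. Hexokinase and phosphofructokinase are regulated entry steps, and pyruvate kinase is the regulated last step. Tumor cell lines commonly express Hk2 and the M2 form of Pkm, whereas hepatocytes use glucokinase and the liver form of pyruvate kinase. Ribo-seq counts the mRNA fragments that ribosomes cover, here called footprints, and a footprint can be given to a gene with certainty only if its sequence occurs nowhere else in the genome.

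Coding windows of most of these enzymes had exact copies elsewhere in the mouse genome, mainly on annotated pseudogenes. The places with a copy ranged from 0 for Hk2 and Pfkl and 1 for Gpi1 to 341 for Gapdh. A stretch of footprint size is therefore shown first for 7 of the genes. Each sequence is a 30-nt window of the coding strand, read from GRCm38.p6, with the codon at the A-site position in capitals. For Gapdh, Ldha, Pgk1, Pgam1 and Aldoa it is the in-frame window within 1 exon with the most exact copies elsewhere. For Hk2 and Pfkl, which have none, it is the middle in-frame window within 1 exon. The Gapdh window was taken from a shorter transcript of 324 counted codons, not from the chosen one.
Gapdh: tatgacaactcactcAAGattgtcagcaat
Ldha: gcaaccctcaaggacCAGctgattgtgaat
Pgk1: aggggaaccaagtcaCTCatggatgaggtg
Pgam1: gccagagcactgcccTTCtggaatgaagaa
Aldoa: ggcaagggcatcctgGCTgcagatgagtcc
Hk2: gtggcttaccgtctgGCTgaccaacaccgg
Pfkl: ttctccctggccatcCTGaatgtgggggct
The Gapdh window, at chr6:125162921-125162950 on the minus strand, occurred at 128 other places. The Ldha window (chr7:46847623-46847652, plus strand) occurred at 11 other places. The windows of Pgk1 (chrX:106202550-106202579, plus strand) and Pgam1 (chr19:41916709-41916738, plus strand) had 5 copies each, and that of Aldoa (chr7:126797648-126797677, minus strand) had 4. No copy was found of the Hk2 window (chr6:82736696-82736725, minus strand) or of the Pfkl window (chr10:77992503-77992532, minus strand).

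In the annotation, the 10 transcripts lie on 6 chromosomes. Hk2 (chr6:82725025-82774454), Tpi1 (chr6:124810586-124814296) and Gapdh (chr6:125161853-125166467) are on the minus strand of chromosome 6. Gpi1 (chr7:34201330-34230336, minus strand), Ldha (chr7:46847082-46855626, plus strand) and Aldoa (chr7:126795236-126799141, minus strand) are on chromosome 7. Pkm is on chromosome 9 (chr9:59656368-59679375, plus strand), Pfkl on chromosome 10 (chr10:77986947-78009807, minus strand), Pgam1 on chromosome 19 (chr19:41911923-41918660, plus strand) and Pgk1 on the X chromosome (chrX:106187100-106203699, plus strand).

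Total counts, summed over all transcripts, lay between 24726706 and 30748268 for RNA-seq and between 2604223 and 11147904 for Ribo-seq, with 8 libraries each. A read on a shared exon counts on each transcript of its gene, so these sums are not numbers of reads. Replicate 2 of KO1 was the smallest Ribo-seq library and replicate 1 of KO1 the largest. The genotype was seen in the counts, since the Eef1d transcript with exon 5 had from 116.0% to 116.2% of the count of the transcript without it in WT RNA-seq and from 89.8% to 92.6% in the 6 KO libraries. Hepatocyte markers were present, with a summed level from 2449 to 2622 CPM (counts per 1e6 counts) in WT and from 1020 to 3765 CPM in the clones. Of their 7 genes tested for RNA, 6 were lower in KO1 at an edgeR adjusted p under 0.05, beside 23.7% of all genes, with a median log2 change of -1.03. In KO2 1 was higher and 3 lower, beside 10.9% and 8.97% of all genes. In KO3 2 were higher and 4 lower, beside 21.7% and 22.3%. The immune markers Adgre1 and Cd3e and the endothelial marker Tek were at 0 in RNA-seq, and the summed levels of the immune and endothelial lists reached at most 6.37 and 2.27 CPM. Fibroblast markers summed to between 902 and 954 CPM in WT and between 714 and 1107 CPM in the clones, and cholangiocyte markers to between 137 and 155 CPM in WT and between 80.0 and 478 CPM in the clones. In these bulk libraries, fewer cells that express a gene and less RNA of it per cell cannot be told apart, and the part of the marker changes in the results below was not tested.

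In WT cells all 10 enzymes were expressed, and 7 of them had RNA levels per codon well above those of Gpi1, Pfkl and Hk2. On the RNA-seq scale of CPM per 1000 codons, Gapdh had the highest level (10580 ± 190.9, SD, n = 2), followed by Aldoa (3352 ± 36.1), Pkm (2968 ± 16.3), Tpi1 (2360 ± 69.3), Ldha (2255 ± 33.9), Pgam1 (2196 ± 2.12) and Pgk1 (1922 ± 19.1). The levels of Gpi1 (557 ± 6.72), Pfkl (290 ± 20.4) and Hk2 (120 ± 1.13) lay below these. No neighbours in this RNA order overlapped between their 2 replicates. On the same scale for footprints, Aldoa (4578 ± 161, SD, n = 2) and Pgam1 (4521 ± 190) were highest and overlapped each other. Pkm (4261 ± 91.9) and Ldha (3736 ± 109) came next, and Tpi1 (3412 ± 114) and Pgk1 (3360 ± 146) overlapped each other. The footprint levels of Gpi1 (614 ± 2.97), Pfkl (257 ± 9.12) and Hk2 (166 ± 0.42) kept the low places they had in RNA. Gapdh, first of the 10 in RNA, was last in footprints at 2.57 ± 1.38.

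**Figure D1:**
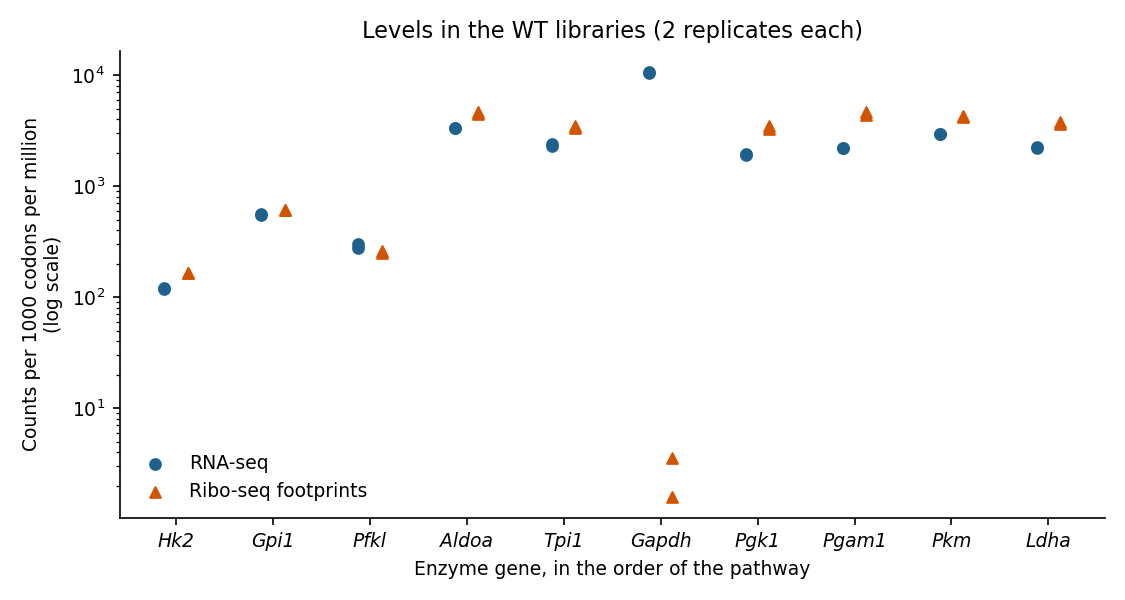
Levels of the 10 enzyme genes in the 2 WT replicates, in CPM per 1000 codons on a log axis, with circles for RNA-seq and triangles for footprints, in the order of the pathway. Gapdh has the highest RNA level (10580) and the lowest footprint level (2.57), while the other 9 genes have RNA and footprint levels of a like order.

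Glyceraldehyde-3-phosphate dehydrogenase, the enzyme that makes the first NADH of the pathway, was almost without footprints in every library. The Gapdh transcript had 40185 and 44043 RNA-seq counts in the WT libraries and 2 and 3 footprints. KO1 had 52858 and 49333 RNA-seq counts with 6 and 3 footprints, KO2 had 35446 and 43297 with 10 and 11, and KO3 had 42727 and 41778 with 9 and 4. Over all libraries these were 48 footprints against 349667 RNA-seq counts, or 0.0137 footprints per 100 RNA-seq counts. All 8 Ribo-seq libraries had 11 Gapdh footprints or fewer, at RNA-seq counts that were the highest of the 10 genes.

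Translation efficiency (TE) is given here as footprints per RNA-seq count, after each is divided by the total of its libraries, so that a TE of 1 means the same share of footprints as of RNA. Among the 4734 genes with at least 1000 RNA-seq counts over both WT libraries, the median TE was 0.846, 40 genes were under 0.1 and 7 under 0.01. The TE of Gapdh in WT was 0.000225, or -12.12 on the log2 scale, which was the third lowest rank of the 4734. Only 1810049J17Rik and Gm20721, with 0 footprints each, stood lower, and Gm5148, Hmgb1, Map3k10, Rsc1a1, LTO1, BC005537 and Rps2 completed the 10 lowest. At the median TE of the other 9 enzymes, 31990 Gapdh footprints would have been counted in WT where 5 were (exact 95% Poisson interval 1.62 to 11.7), a level 6398-fold lower, with an interval of 2742 to 19700 that covers counting error only. The log2 TE of Gapdh was -12.68 in WT replicate 1 and -11.56 in replicate 2, and over both libraries of KO1, KO2 and KO3 it was -11.61, -10.15 and -10.89. Gapdh was at rank 3 from the lowest in each clone as well.

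The other 9 enzymes did not share this gap. Their TE in WT ran from 0.884 for Pfkl, the committed phosphofructokinase step, to 2.07 for Pgam1, the mutase that follows phosphoglycerate kinase. Pfkl was at percentile 52.5 of the 4734 genes and Gpi1, the isomerase that makes fructose-6-phosphate, at 68.6 with a TE of 1.10. Aldoa (1.37), Hk2 (1.38), Pkm (1.44) and Tpi1 (1.45) lay between percentiles 84.5 and 87.4. Ldha had a TE of 1.65 (percentile 92.7), Pgk1 1.76 (94.7) and Pgam1 2.07 (97.2). In 8 of the 9 the TE was above 1, and in all 9 it was above the median of the ranked genes. Over these 9 genes the same ratio ran from 0.926 to 2.16 in KO1, from 0.915 to 2.12 in KO2 and from 0.922 to 2.07 in KO3.

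Exact copies of the Gapdh windows in the genome were counted, as values chosen after the footprints had been seen. Of the 1050 windows of 30 nt, 1 for each A-site position on the chosen Gapdh transcript, 990 (94.3%) had 10 or more exact copies elsewhere, with a median of 61.5 copies and a highest value of 131. These copies lay at 341 places, of which 329 overlap an annotated pseudogene, 41 hold at least 50% of the windows and 3 hold all 990. On the 324-codon Gapdh transcript all 972 windows had 10 or more copies, with a median of 64. With windows of 100 nt, longer than a footprint, 86.3% of the windows of the longer transcript still had 10 or more copies, the highest value being 40. The study sequenced with paired reads longer than 100 nt, and copies of whole RNA-seq fragments were not counted.

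Having some copies went with no such gap among the other enzymes. Every window of Pgk1 and of Pgam1 had a copy, but none had 10 or more (medians of 2 copies, at most 6 and 5), and these 2 genes had the highest TE of the 10. The share of windows with a copy was 76.4% in Pkm, 61.3% in Ldha, 51.4% in Gpi1, 44.7% in Aldoa, 33.2% in Tpi1 and 0 in Hk2 and Pfkl. Ldha alone of these had windows with 10 or more copies, 4.45% of them. For Pgk1, Pgam1 and Gapdh, whose reads could belong to near-identical copies, counts are uncertain to that extent. The same holds for the copied windows of Pkm, Ldha, Gpi1, Aldoa and Tpi1.

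Across the ranked genes, 38 had 10 or more copies on at least 50% of their windows, and 6 of them (15.8%), Gapdh included, had a TE under 0.1. The other 5 were Hmgb1, Rps2, Hnrnpa3, Rps12 and Rpl21. Among 2830 genes without a copied window 19 (0.671%) had a TE that low, and among 1829 genes with copies but under 50% of windows at 10 or more it was 14 (0.765%). Of the 59 of these 1829 genes with a copy of every window and none at 10 or more, Pgk1 and Pgam1 among them, 0 had a TE under 0.1. At shares under 1%, 59 genes are too few to show a difference. Not all genes with many copies had few footprints, and the median TE of the class of 38 was 1.059. The median was 0.8123 for the genes without a copied window and 0.9325 for those with copies but under 50% of windows at 10 or more. Most of the class of 38 were histone genes of the Hist1 group, with a TE from 0.841 (Hist1h2bg) to 5.12 (Hist1h2ak), and they set its median. The other genes of the class ran from 0.000225 (Gapdh) to 1.013 (Hmgn2). Ppia (0.586) and H3f3a (0.494) were the next below Hmgn2. The study's methods list a count of uniquely mapped reads, and footprints that were not formed and footprints that were not assigned to Gapdh cannot be told apart in these counts. The part of the copies in the missing Gapdh footprints was not tested.

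**Figure D2:**
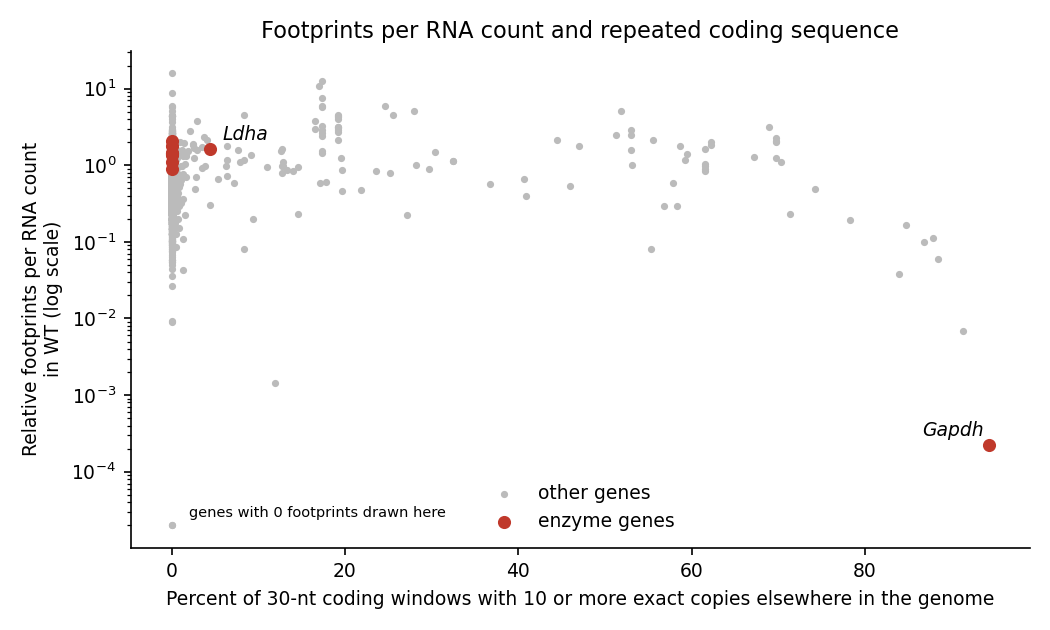
Relative footprints per RNA-seq count in WT (log axis) against the percent of 30-nt coding windows with 10 or more exact copies elsewhere in the genome, for the ranked genes with a known window share. Gapdh lies at 94.3% and 0.000225, Ldha at 4.45% and 1.65, and the other 8 enzyme genes at 0%. Genes with 0 footprints are drawn at the lower edge.

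Gapdh has 6 transcripts in the table, and none of them had more than 11 footprints in a library. The chosen transcript has 350 counted codons, and its coding sequence begins 26 codons upstream of that of the 324-codon transcripts. Those 78 bases are 5′ UTR in the annotation of the 324-codon transcript ENSMUST00000073605.14. The added stretch held 1316 and 1552 RNA-seq counts in WT, and 0 footprints in both WT libraries. It held 4 of the 48 footprints over all 8 Ribo-seq libraries. A 47-codon Gapdh transcript, ENSMUST00000182277.1, had 3783 and 3893 RNA-seq counts in WT and 0 footprints in all 8 libraries.

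Short annotated transcripts of the other enzymes differed in direction. Those of Hk2 and Pkm, singled out after their values were seen, had more footprints than RNA-seq counts. A 33-codon Hk2 transcript, ENSMUST00000169270.1, had 1 and 0 RNA-seq counts in WT and 31 and 17 footprints. A 42-codon Pkm transcript, ENSMUST00000216620.1, had 178 and 171 RNA-seq counts and 655 and 417 footprints. Other short transcripts had fewer footprints than RNA-seq counts in WT, such as a 24-codon one of Gpi1, ENSMUST00000205865.1 (96 and 140 RNA-seq counts, 43 and 25 footprints). A 55-codon one of Pfkl, ENSMUST00000218383.1, had 95 and 97 RNA-seq counts and 17 and 14 footprints, and a 56-codon one of Ldha, ENSMUST00000125862.7, had 784 and 739 RNA-seq counts and 519 and 356 footprints. A read on a shared exon counts on each transcript of the gene, so these are not added to the counts of the chosen transcripts.

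Each clone was compared with WT by edgeR's quasi-likelihood test over all transcripts, with Benjamini-Hochberg adjusted p-values under 0.05 taken as calls. This asked whether the clone differed from WT in the RNA, footprints or TE of these genes, not whether loss of exon 5 was the reason. For the RNA of KO1, 9 of 10 enzymes were called, 4 higher and 5 lower, where 46.7% of all genes with 1 transcript each were called (22.9% higher, 23.7% lower). KO2 had 5 enzymes called, 1 higher and 4 lower, against 19.9% of all genes (10.9% higher, 8.97% lower). KO3 had 5 as well, 2 higher and 3 lower, against 44.0% of all genes (21.7% higher, 22.3% lower). For footprints Gapdh was too low to be tested. Of the other 9 enzymes, 6 were called in KO1, 2 higher and 4 lower, against 26.5% of all genes (12.4% higher, 14.1% lower). In KO2 4 were called, 1 higher and 3 lower, against 11.0% (5.83% higher, 5.15% lower), and in KO3 again 1 higher and 3 lower, against 29.0% (13.2% higher, 15.8% lower). Over the 10 genes the median log2 RNA changes of KO1, KO2 and KO3 were -0.05, -0.11 and -0.06, beside 0.015, -0.0067 and -0.0059 over all genes. WT and clone replicates did not overlap for 9, 9 and 7 of the 10 genes in RNA and for 8, 8 and 6 of 9 in footprints. The same held for 71.9%, 57.8% and 70.7% of all genes in RNA and 59.1%, 52.2% and 63.4% in footprints. The 3 comparisons share the WT libraries, and as the labels do not say whether replicates were separate cultures, their p-values measure only the spread between these samples.

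Hk2, the hexokinase that traps glucose as glucose-6-phosphate, changed most between the clones. Its RNA was at 109.9 and 108.5 CPM in WT, 153.7 and 135.6 for KO1, 158.4 and 154.6 for KO2, and 57.3 and 53.4 for KO3. All 4 libraries of KO1 and KO2 were above WT and both of KO3 were below it, without overlap. KO1 had a log2 RNA change of 0.42 ± 0.066 (SE; edgeR adjusted p = 4.05e-07), KO2 of 0.51 ± 0.065 (2.74e-06) and KO3 of -0.99 ± 0.076 (6.97e-16). Hk2 footprints were at 151.4 and 150.8 CPM in WT, 167.9 and 164.8 for KO1, 187.7 and 181.2 for KO2, and 68.7 and 67.3 for KO3. The footprint change was not called in KO1 (0.15, edgeR adjusted p = 0.227), whereas KO2 had a log2 change of 0.27 (0.0209) and KO3 of -1.18 ± 0.093 (5.18e-16). The footprint call in KO2 was lost without WT replicate 1 (edgeR adjusted p = 0.156), without WT replicate 2 (0.11) and without KO2 replicate 1 (0.142), and with DESeq2 (0.292).

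Gpi1, which makes fructose-6-phosphate, fell in KO1. RNA-seq levels were 303.1 and 308.3 CPM in WT, 230.1 and 228.3 for KO1, 282.1 and 282.2 for KO2, and 289.3 and 294.9 for KO3, all 6 clone libraries being below WT. KO1 had a log2 RNA change of -0.40 ± 0.051 (edgeR adjusted p = 1.47e-09), whereas those of KO2 (-0.12, 0.136) and KO3 (-0.07, 0.277) were not called. In footprints, Gpi1 was at 336 and 338 CPM in WT, 268 and 292 for KO1, 339 and 338.5 for KO2, and 311 and 289 for KO3. Footprints of Gpi1 fell in KO1 by 0.28 on the log2 scale (edgeR adjusted p = 0.00245) and in KO3 by 0.19 (0.0269). The KO1 call was lost without KO1 replicate 1 (0.233), without WT replicate 1 (0.0559) and with DESeq2 (0.125), and the KO3 call without WT replicate 1 (0.131), WT replicate 2 (0.112) or KO3 replicate 2 (0.222) and with DESeq2 (0.248).

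Pfkl, the liver form of phosphofructokinase, moved in opposite directions in the 2 clones made with the same guides. It was at 234.8 and 212.6 CPM of RNA in WT, 297.8 and 281.4 for KO1, 156.7 and 163.7 for KO2, and 220.6 and 208.8 for KO3. KO1 lay above WT and KO2 below it, whereas KO3 overlapped WT. In KO1 the log2 RNA change was 0.39 ± 0.053 (edgeR adjusted p = 1.98e-08) and in KO2 -0.48 ± 0.062 (3.59e-06). Its footprints were at 193 and 203 CPM in WT, 280.5 and 218 for KO1, 142 and 153 for KO2, and 216 and 176 for KO3, with the same order of the lines. They changed by 0.40 in KO1 (edgeR adjusted p = 4.62e-05) and by -0.44 in KO2 (0.00017). The KO1 footprint call was lost without KO1 replicate 1, which leaves the smallest library for KO1 (log2 change 0.15, edgeR adjusted p = 0.493), and with DESeq2 (0.0807).

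Aldoa, the aldolase that splits fructose bisphosphate, had the largest fall of the 10 genes in KO1. Its RNA was at 1360 and 1381 CPM in WT, 857 and 852 for KO1, 1247 and 1306 for KO2, and 1446 and 1440 for KO3. KO1 and KO2 lay below WT and KO3 above it, without overlap, and KO1 was the farthest, with a log2 RNA change of -0.67 ± 0.036 (edgeR adjusted p = 1.75e-23) and a log2 footprint change of -0.63 ± 0.06 (1.15e-16). Aldoa footprints were at 1919 and 1826 CPM in WT, 1190 and 1227 for KO1, 1746 and 1751 for KO2, and 1921 and 1832 for KO3, where KO3 overlapped WT. In KO2 the log2 RNA change of -0.11 (edgeR adjusted p = 0.0772) became a call with a replicate block (0.0437) and without KO2 replicate 2 (0.0021). In KO3 the RNA change was 0.07 and not called.

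Tpi1, the triose phosphate isomerase, rose in KO1 and fell in KO3. RNA-seq gave 670.1 and 698.7 CPM in WT, 869 and 844 for KO1, 656 and 690.6 for KO2, and 549 and 524 for KO3. Footprints of Tpi1 were at 1013 and 966 CPM in WT, 1206 and 1196 for KO1, 965 and 990.1 for KO2, and 790.4 and 751 for KO3. On both scales the KO2 libraries overlapped WT, and those of KO1 and KO3 did not. KO1 had a log2 RNA change of 0.34 ± 0.04 (edgeR adjusted p = 2.36e-10) and KO3 of -0.36 ± 0.045 (4.21e-09), with footprint changes of 0.29 (9.66e-05) and -0.39 (3.25e-07).

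Gapdh RNA rose in KO1 and was slightly lower in the other clones. The levels were 3654 and 3748 CPM in WT, 4579 and 4629 for KO1, 3316 and 3520 for KO2, and 3389 and 3422 for KO3. The log2 RNA change of 0.33 ± 0.028 in KO1 (edgeR adjusted p = 8.59e-15) corresponds to 1.254 times the WT level. In KO2 it was -0.12 ± 0.036 (edgeR adjusted p = 0.0219) and in KO3 -0.13 ± 0.033 (0.00162). The KO2 call was lost without WT replicate 1 (0.165), without WT replicate 2 (0.351) and with DESeq2 (0.194), its log2 change was -0.08 without KO2 replicate 1, and the KO3 call without WT replicate 2 (0.103).

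Pgk1, which makes the first ATP of the pathway, changed least. Its RNA was at 789.5 and 778 CPM in WT, 798 and 774 for KO1, 683 and 712 for KO2, and 809 and 788 for KO3. Footprint levels were 1413 and 1329 CPM in WT, 1317 and 1327 for KO1, 1221 and 1205 for KO2, and 1337 and 1296 for KO3. In RNA only KO2 did not overlap WT, with a log2 RNA change of -0.17 ± 0.044 (edgeR adjusted p = 0.00815) and a log2 footprint change of -0.19 (0.0265). The RNA call was lost without WT replicate 1 (0.185) or WT replicate 2 (0.1). The footprint call was lost without WT replicate 1 (0.368), without KO2 replicate 2 (0.0946), with 1 transcript per gene (0.0551) and with DESeq2 (0.14).

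Pgam1, the next enzyme of the pathway, differed in sign between KO2 and KO3. It was at 538.6 and 537.8 CPM of RNA in WT, 499.9 and 485 for KO1, 449 and 458.5 for KO2, and 618.5 and 587 for KO3. KO1 had a log2 RNA change of -0.12 (edgeR adjusted p = 0.0257), KO2 of -0.25 ± 0.048 (0.000468) and KO3 of 0.16 ± 0.046 (0.00526). The KO1 call was lost without WT replicate 1 (0.175), WT replicate 2 (0.142) or KO1 replicate 2 (0.0991), with all libraries in 1 fit (0.0625) and with DESeq2 (0.112). The KO3 call was lost without WT replicate 1 (0.069) or WT replicate 2 (0.0795). Its footprints were at 1140 and 1075 CPM in WT, 1060 and 1076 for KO1, 947 and 978 for KO2, and 1299 and 1190 for KO3. They were called in KO2 (-0.22, edgeR adjusted p = 0.0112) but not without WT replicate 1 (0.249), without KO2 replicate 1 (0.0535) or with DESeq2 (0.0772). In KO3 the footprint change of 0.14 (edgeR adjusted p = 0.0688) was called without a filter on low counts (0.041), with 1 transcript per gene (0.0496), with a replicate block (0.0306) and without KO3 replicate 2 (0.014).

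Pkm, the pyruvate kinase gene, was lower in KO1 and higher in KO3. RNA-seq levels were 1556 and 1544 CPM in WT, 1314 and 1323 for KO1, 1415 and 1514 for KO2, and 1892 and 1902 for KO3. Pkm footprints were at 2258 and 2190 CPM in WT, 1735 and 1633 for KO1, 1998 and 2041 for KO2, and 2622 and 2546 for KO3. On both scales the 3 clones lay in 3 separate ranges and none overlapped WT. In KO1 the log2 RNA change was -0.22 ± 0.034 (edgeR adjusted p = 3.18e-07) and the footprint change -0.39 ± 0.059 (3.43e-08). KO3 had a log2 RNA change of 0.28 ± 0.037 (9.93e-09 in edgeR, adjusted) and a footprint change of 0.19 ± 0.055 (0.00749), whose call was lost without WT replicate 2 (0.0691). In KO2 the RNA change of -0.09 (edgeR adjusted p = 0.17) was called without KO2 replicate 2 (0.00219). The KO2 footprint change of -0.15 (edgeR adjusted p = 0.0695) was called without a filter on low counts (0.0413) and with a replicate block (0.013).

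Ldha, the lactate dehydrogenase subunit that favors lactate formation, fell in KO1. It stood at 802 and 785 CPM of RNA in WT, 558 and 537 for KO1, 737 and 755.5 for KO2, and 797.5 and 747 for KO3. Ldha footprints were at 1288 and 1342 CPM in WT, 934 and 893 for KO1, 1263 and 1225 for KO2, and 1276 and 1201 for KO3. KO1 was far below the other lines on both scales, with a log2 RNA change of -0.52 ± 0.041 (edgeR adjusted p = 1.15e-16) and a log2 footprint change of -0.51 ± 0.062 (8.78e-12). In KO2 and KO3 the RNA changes were -0.09 and -0.05 and were not called.

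**Figure D3:**
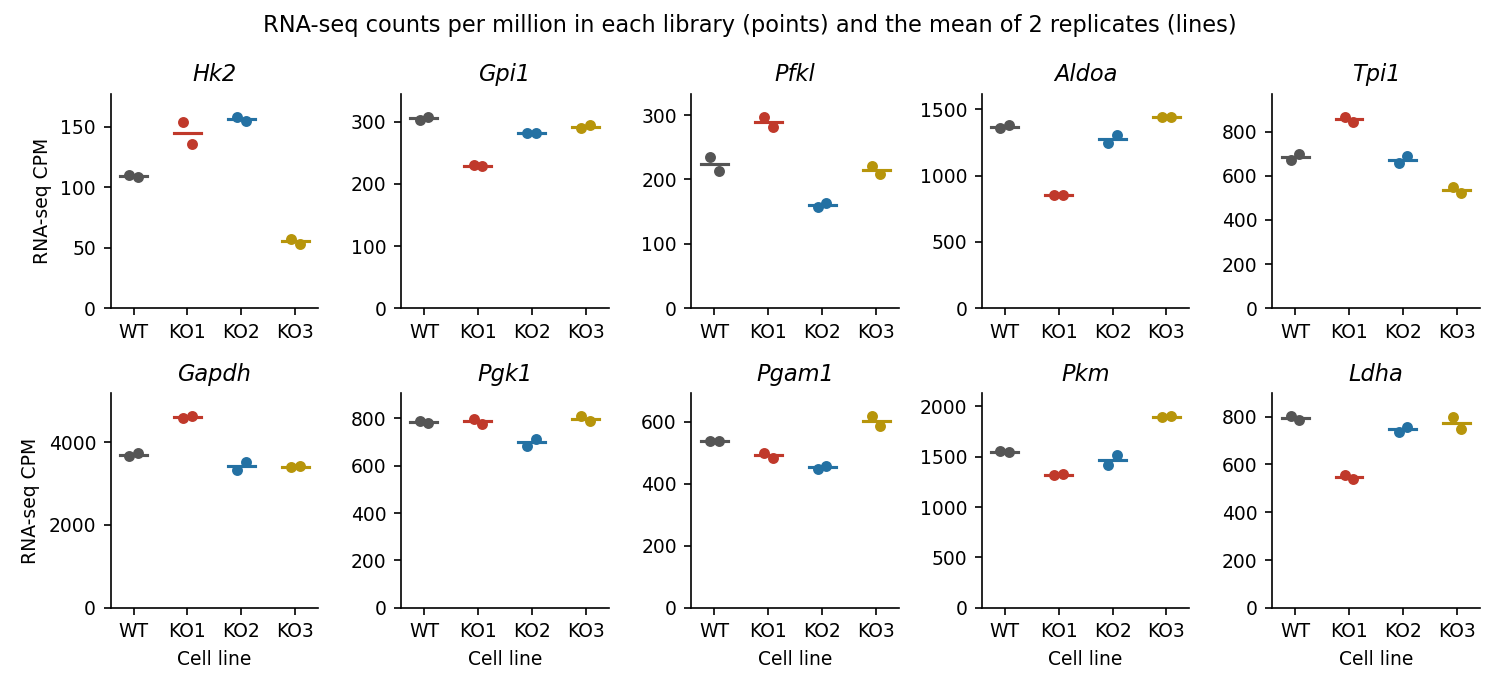
RNA-seq levels in CPM for the 10 enzyme genes in the 8 RNA-seq libraries, with a point for each library and a line at the mean of the 2 replicates of each cell line. Hk2 is raised in KO1 and KO2 and lowest in KO3 (57.3 and 53.4 CPM), Aldoa and Ldha are lowest in KO1, and Pgk1 differs least between the lines.

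No TE change of these genes was called. The 9 enzymes other than Gapdh had log2 TE changes between -0.27 and 0.12 over the 3 clones. Of the 10 enzymes, 0 were called for TE in any clone by edgeR, where 0.146%, 0.0259% and 0.121% of all genes were called for KO1, KO2 and KO3, and DESeq2 called 0 as well. At an unadjusted p under 0.05 there were 2 in KO1 (Hk2 and Pkm), 2 in KO2 (Gapdh and Hk2) and 0 in KO3. Among the 38614 transcripts tested for TE with KO1, 2879 reached this unadjusted threshold. The KO2 fit had 1797 such transcripts out of 38293 tested. With KO3, 38347 transcripts were tested and 2446 reached it. Hk2 had a log2 TE of 0.46 and 0.47 in WT, 0.13 and 0.28 for KO1, 0.24 and 0.23 for KO2, and 0.26 and 0.33 for KO3. All 6 clone libraries were below both WT libraries, with log2 TE changes of -0.27 ± 0.11 for KO1 (unadjusted p = 0.0154, edgeR adjusted p = 0.515), -0.25 ± 0.104 for KO2 (0.0198 and 1.00) and -0.19 ± 0.12 for KO3 (0.123 and 0.844). Pkm had a log2 TE of 0.54 and 0.50 in WT and 0.40 and 0.30 in KO1, a change of -0.17 ± 0.066 (unadjusted p = 0.012, edgeR adjusted p = 0.498). The TE changes of Gapdh, 0.49 ± 0.65, 1.93 ± 0.54 and 1.19 ± 0.61 in KO1, KO2 and KO3, rest on 2 to 11 footprints a library and were not called (edgeR adjusted p = 0.944, 0.930 and 0.833).

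**Figure D4:**
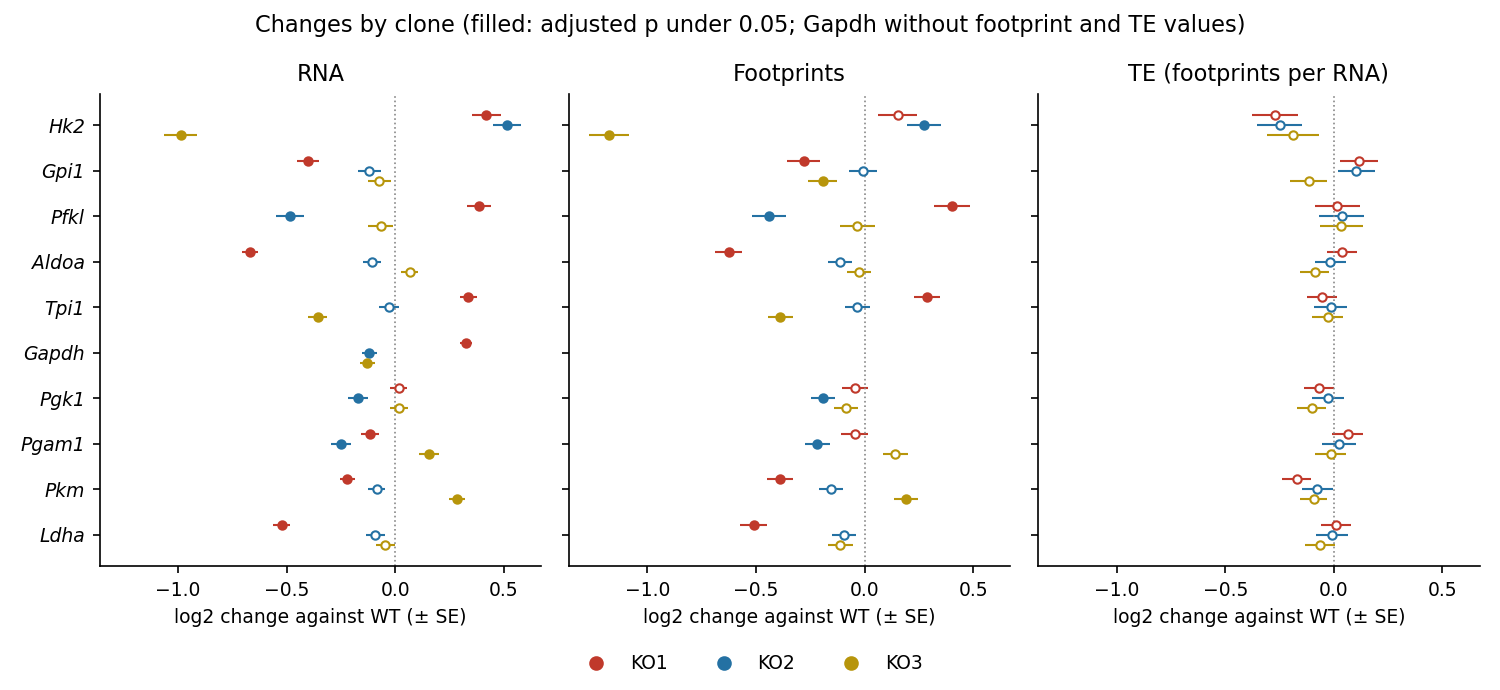
Log2 changes against WT with their standard errors for RNA, footprints and TE of the enzyme genes, colored by clone, with filled points where the edgeR adjusted p is under 0.05. RNA and footprint changes lie close to each other for most genes, TE changes lie between -0.27 and 0.12 with none filled, and Gapdh is drawn for RNA only.

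The mean of the 3 clones was small for most of these genes because the clones moved in different directions. Against WT, in 1 fit of all libraries, the RNA calls were lower for 3 enzymes, Aldoa (-0.24 ± 0.034, edgeR adjusted p = 5.69e-07), Ldha (-0.22 ± 0.038, 1.81e-05) and Gpi1 (-0.20 ± 0.044, 0.000717), beside 18.6% of all genes called and 11.7% called lower. The p-values of the mean measure the spread between replicates of a line, not between clones. Taken by clone, the RNA of these 3 enzymes was called in KO1 only. All 3 are on chromosome 7, where other genes within 10 Mb of Aldoa, Ldha and Gpi1 had median mean changes of -0.147, -0.158 and -0.154. For footprints the 3 called, all lower, were Aldoa (-0.26 ± 0.046, edgeR adjusted p = 1.62e-05), Hk2 (-0.25 ± 0.072, 0.0152) and Ldha (-0.24 ± 0.047, 0.00011), beside 9.05% of all genes called and 6.46% called lower. The Hk2 call was lost without WT replicate 1 (0.264) or WT replicate 2 (0.131) and with DESeq2 (0.256). Gpi1 footprints, at -0.16 (edgeR adjusted p = 0.0759), were called without KO1 replicate 2 (0.0475) and with a replicate block (0.0216), which also added Pkm (0.0324). No TE call was made in the mean by edgeR or DESeq2, for these genes or, in edgeR, for any gene with 1 transcript each (0.00%). An unadjusted p under 0.05 was reached in the mean TE change by 2 enzymes, Gapdh (1.21 ± 0.52, on 2 to 11 footprints a library) and Hk2 (-0.23 ± 0.092). Over all transcripts it was reached by 1775 of 39662.

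A test that the 3 clones changed equally was made in the same fits. It called all 10 enzymes for RNA, where 74.7% of all genes were called, and 8 of 9 for footprints, where 58.9% were, Pgk1 being the exception (edgeR adjusted p = 0.073). The smallest adjusted p-values among the enzymes were those of Hk2, 5.34e-23 in RNA and 1.54e-28 in footprints. For TE it called 0 of 10 in edgeR and in DESeq2, beside 1.19% of all genes in edgeR. An unadjusted p under 0.05 was found for 2 enzymes, Gapdh and Gpi1, and for 3960 of 39662 transcripts.

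The RNA change of each enzyme was set beside that of its chromosomal neighbours, in a comparison chosen after the changes were seen. The median absolute gap between an enzyme and the median of its neighbours within 10 Mb was 0.136 on the log2 scale in KO1, 0.142 in KO2 and 0.118 in KO3, where the median absolute changes of the enzymes themselves were 0.3605, 0.1196 and 0.101. In KO1, 859 other genes of chromosome 7 had a median log2 RNA change of -0.43 and 12.3% of them were above 0, and the genes within 10 Mb of Aldoa, Gpi1 and Ldha had medians of -0.43, -0.42 and -0.41. Chromosome 9, which carries Pkm, had a median of -0.35 in KO1, and the median near Pkm was -0.34. The neighbours of the genes that rose were shifted upward, by 0.17 near Gapdh, Tpi1 and Hk2 and by 0.23 near Pfkl. All of chromosome 6 had a median of 0.16 in KO1, and chromosomes without an enzyme had medians from -0.32 (chromosome 16) to 0.14 (chromosome 17). All 10 enzymes had the same sign as the median of their neighbours in KO1, 8 were inside the middle 50% of the neighbours' changes, and r across the 10 genes was 0.95, as a description of genes that share libraries and in part chromosomes. With neighbours within 5 Mb the median near Pgam1 in KO1 was 0.0084, above 0, while Pgam1 changed by -0.12. Aldoa fell by 0.67 where 25.2% of 155 neighbours fell further.

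In KO2, the 554 other genes of chromosome 10 had a median of -0.26, with -0.28 near Pfkl. The rise of Hk2 by 0.51 in KO2 lay above 98.96% of its 96 neighbours, whose median was 0.05. Only 2 of the 10 enzymes were inside the middle 50% of their neighbours in KO2, and 5 had the same sign as their median (r = 0.67 across the 10 genes). In KO3, the 520 other genes of chromosome 6 had a median of -0.33, with -0.35 near Hk2, -0.25 near Tpi1 and -0.26 near Gapdh. The fall of Hk2 in KO3 was larger than that of its neighbours, 6.32% of which fell further. Pkm and Pgam1 rose in KO3 by 0.28 and 0.16 where the medians of their neighbours were 0.0007 and -0.17. In KO3 7 of 10 enzymes were inside the middle 50% and 6 had the same sign (r = 0.71). Whether gains or losses of chromosome segments in the clones account for these values was not tested.

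**Figure D5:**
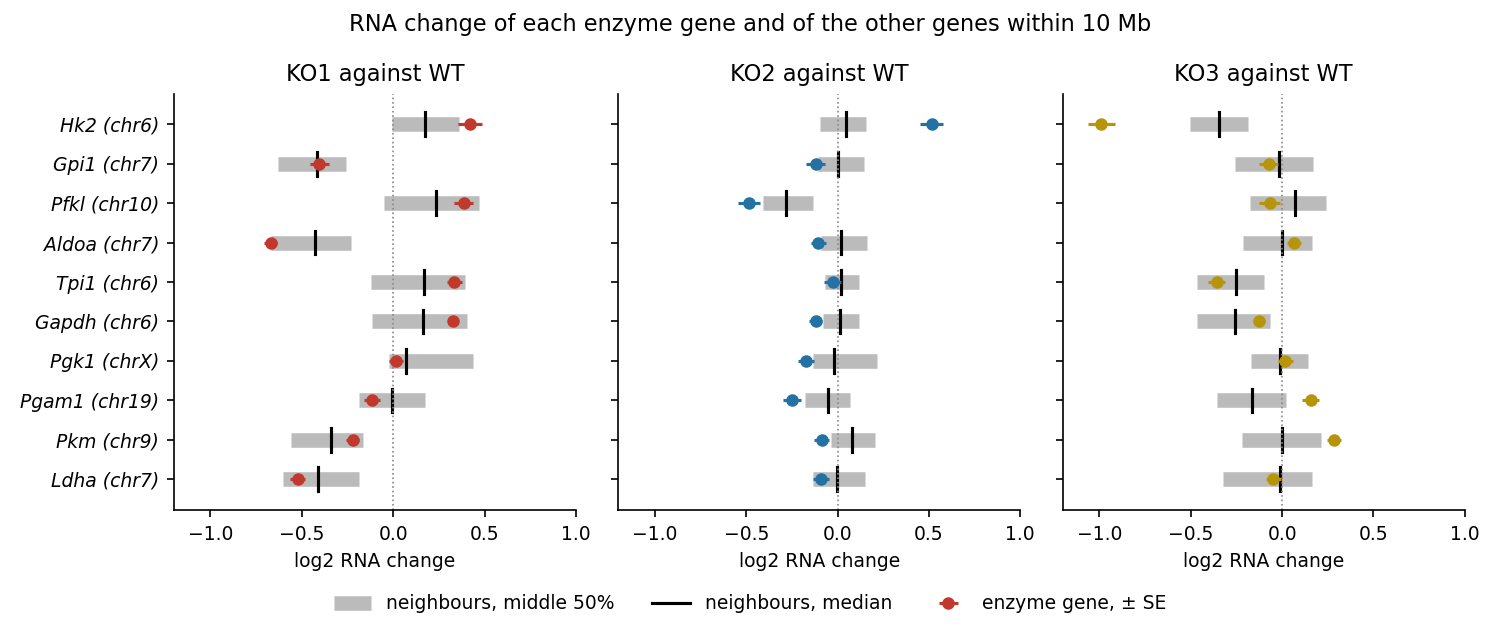
Log2 RNA change of each enzyme gene against WT (points with standard errors) beside the median (black tick) and the middle 50% (grey bar) of the other genes within 10 Mb, for the 3 clones. Aldoa, Ldha and Gpi1 on chromosome 7 lie below 0 in KO1 with their neighbours, and Hk2 lies outside the neighbours' middle 50% in KO1 (0.42), KO2 (0.51) and KO3 (-0.99).

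Pkm gives M1 or M2 pyruvate kinase by use of exon 9 or exon 10, which exclude each other, and both are shown because the 2 transcripts differ in the table only by reads on them. Bases that differ between the exons are in capitals.
M1 exon 9: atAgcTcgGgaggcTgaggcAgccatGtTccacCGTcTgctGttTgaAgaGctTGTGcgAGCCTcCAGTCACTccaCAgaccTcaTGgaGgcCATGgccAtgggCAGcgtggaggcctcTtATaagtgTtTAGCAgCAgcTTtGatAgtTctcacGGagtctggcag
M2 exon 10: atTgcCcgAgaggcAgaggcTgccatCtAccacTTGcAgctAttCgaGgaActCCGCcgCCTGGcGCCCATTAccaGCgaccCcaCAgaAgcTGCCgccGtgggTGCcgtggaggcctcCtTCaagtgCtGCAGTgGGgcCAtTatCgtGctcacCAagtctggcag
Exon 9 lies at chr9:59675029-59675195 and exon 10 at chr9:59675568-59675734 of GRCm38, both on the plus strand. They have 167 bases each, of which 103 (61.7%) are the same. The transcript with exon 10 had 17105 and 18141 RNA-seq counts in WT and the one with exon 9 had 14791 and 15784. The M2 transcript had the larger count in all 16 libraries, by 13.25% to 15.95% of the M1 count in RNA-seq and by 9.52% to 13.5% in footprints. This difference is the reads on exon 10 minus those on exon 9. The RNA change of the M1 transcript was close to that of the M2 transcript in each clone, at -0.21, -0.09 and 0.30 on the log2 scale beside -0.22, -0.09 and 0.28, as most reads are counted on both.

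Other transcripts of the same genes gave like RNA changes. Among transcripts with at least 50% of the codons of the chosen one, the 8 of Ldha ranged from -0.71 to -0.50 in KO1, the 4 of Aldoa from -0.67 to -0.65, and the 4 of Gapdh from 0.327 to 0.33. Those of Hk2 in KO3 were at -0.99 and -0.98.

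Lists of genes around the pathway were set beside the enzymes. Their counts of RNA calls stand beside 46.7% (22.9% higher, 23.7% lower), 19.9% (10.9% and 8.97%) and 44.0% (21.7% and 22.3%) of all genes called in KO1, KO2 and KO3, and nothing particular to a list is read from them. None of the lists had a TE call in any clone or in their mean by edgeR. Other isozymes of the same steps and enolase numbered 19 genes, of which 12, 11 and 12 were tested for RNA in KO1, KO2 and KO3. Of these, 2 were higher and 4 lower in KO1 (median log2 change 0.03), 1 and 4 in KO2 (0.09), and 5 and 4 in KO3 (0.14). Bpgm and Eno3 of this list were called for RNA in all 3 clones. Bpgm, the bisphosphoglycerate mutase, changed by -0.57, -0.48 and -0.34 on the log2 scale in KO1, KO2 and KO3. Eno3, the muscle enolase, changed by -1.66 in KO1 and by 0.83 and 0.56 in KO2 and KO3.

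Of 8 gluconeogenesis genes, 4 were tested for RNA, with 1 higher and 2 lower in KO1, the same in KO2, and 1 higher in KO3. Pck2, the mitochondrial phosphoenolpyruvate carboxykinase, changed by -0.72, 0.37 and 0.52 in the 3 clones. Glucose and lactate transporters (7 genes) had 2 higher and 2 lower of 4 tested in KO1, 2 lower of 3 in KO2 and 2 higher of 4 in KO3. Bsg, the partner protein of lactate transporters, changed by 0.34, -0.52 and 0.24. Of the 16 regulators of glycolytic flux, 13 were tested, with 2 higher and 3 lower for KO1, 1 and 2 for KO2, and 3 and 2 for KO3. Hif1a, the oxygen-regulated activator of many glycolytic genes, changed by -0.78, -0.41 and 0.30 in RNA and by -0.56, -0.41 and 0.32 in footprints.

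All 8 pentose phosphate pathway genes were tested, with 2 higher and 4 lower in KO1, 1 higher in KO2, and 3 higher and 2 lower in KO3. H6pd, the hexose-6-phosphate dehydrogenase of the ER, changed by 0.62, 0.41 and -1.64. Beside the same shares of all genes (46.7%, 19.9% and 44.0% called), hypoxia-induced genes outside glycolysis (14 genes, 12 tested) had 0 higher and 5 lower for KO1, 1 and 3 for KO2, and 5 and 2 for KO3, with median changes of -0.26, -0.01 and 0.09. Egln3, a prolyl hydroxylase, changed by -1.16, -0.99 and 0.79 and P4ha1, a collagen prolyl hydroxylase, by -0.41, -0.45 and 0.34. Of the 7 genes of pyruvate dehydrogenase and pyruvate import, 2 were higher and 1 lower in KO1, 1 was higher in KO2 and 1 lower in KO3.

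Of these list genes, 28 had at least 1000 RNA-seq counts in WT, and their TE ran from 0.262 (Egln1, an oxygen-sensing hydroxylase) to 2.21 (Slc2a1, a glucose transporter), with a median of 1.22. None was near the value of Gapdh. Eno1, which catalyzes the step between Pgam1 and Pkm and was named after its values were seen, had 25244 RNA-seq counts and 12106 footprints (TE 1.82) with a copy of 89.9% of its windows and none at 10 or more. Its near copy Eno1b had 2687 RNA-seq counts and 11210 footprints (TE 15.8) with 97.5% of windows copied, so the counts of both genes are uncertain.

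The mean RNA profile of the 10 enzymes, each centred on its own mean, spanned only 0.13 on the log2 scale over the 8 RNA-seq libraries. Of 8716 other genes, those with the highest Pearson's r to this profile were Trp53inp1 (0.94), Snrnp35 (0.92), Tsen34 (0.92), Cdkn1b (0.92) and Yipf3 (0.91), as a description over 8 libraries of 4 lines. The enzymes themselves correlated with their mean from -0.30 (Pkm) to 0.44 (Tpi1).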

How the data were processed

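The libraries analysed were RNA-seq and Ribo-seq of WT cells and of the exon 5 KO clones KO1, KO2 and KO3. The values deposited by the authors are raw counts per transcript of positions assigned to the A-site on the coding sequence, leaving out the first and last 5 codons. The authors' processing used fastp 0.21.0, STAR 2.7.0a, genome build mm10 and GENCODE vM23, and whether the molecular identifiers of the linkers were collapsed is not given in the sources used here. The labels name polyA RNA, whereas the study's protocol describes depletion of ribosomal RNA.

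Members and gene lists were chosen with earlier results of these data known. For each gene the transcript with the largest sum over all count columns was used, and library totals for CPM and TE were summed over these transcripts. Levels were scaled by TMM. Changes were tested with edgeR 4.0.16 (R 4.3.3, quasi-likelihood, TMM within each assay, filterByExpr) over every transcript tested, with Benjamini-Hochberg adjustment and a threshold of 0.05. Each clone was fitted with WT alone, TE as the interaction of line and assay, and the mean of the clones and their difference over all libraries. A gene's transcripts share reads and are not independent, so shares of all genes count 1 transcript per gene. Scripts were tested on simulated data. Alternatives were DESeq2 1.42.0 and its size factors, other filters, 1 transcript per gene, all libraries in 1 fit, blocks for replicate or lysate, and each replicate left out.

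Genes with at least 1000 RNA-seq counts over both WT libraries were ranked by TE. Exact copies of coding windows of 30 nt were counted on both strands of GRCm38.p6, with GENCODE vM21 for positions, for 9839 of 9939 transcripts, the other 100 having no match in that annotation. The choice of 10 or more copies, the 100-nt windows, the 324-codon Gapdh transcript and the neighbourhood of 10 Mb was made after seeing the data. Named genes were all members, up to 3 genes of each list called for RNA in all 3 clones, the 10 lowest TE values and the 5 genes most alike in RNA with a mean of at least 10 CPM. Some items that these rules select are not reported here. Depth ranged from 10493029 to 12946815 RNA-seq counts and from 1138944 to 4886757 footprints at 1 transcript per gene, and intervals cover counting error only.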

Additional observations from a re-analysis of the deposited data

Results flagged for a closer look

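The 3 clones differed from each other in most of these enzymes, by the joint test in edgeR that their changes against WT were equal. So did most genes, as this test called 74.7% of all genes for RNA and 58.9% for footprints. For RNA the adjusted p was 1.53e-16 for Gapdh, 5.34e-23 for Hk2, 2.45e-06 for Gpi1, 2.62e-16 for Pfkl, 2.19e-19 for Aldoa, 1.18e-16 for Tpi1, 0.000247 for Pgk1, 3.08e-09 for Pgam1, 2.62e-14 for Pkm and 3.92e-12 for Ldha. For footprints the edgeR adjusted p was 1.54e-28 for Hk2, 0.00238 for Gpi1, 4.37e-14 for Pfkl, 1.35e-16 for Aldoa, 5.92e-17 for Tpi1, 6.59e-07 for Pgam1, 1.56e-15 for Pkm and 6.69e-10 for Ldha. Hk2 had the smallest value in both, being 1.34-fold and 1.43-fold of WT in the RNA of KO1 and KO2 and 0.504-fold in that of KO3. With 2 libraries a line, no test for a single outlying library was possible.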

How the results depend on the processing

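No called change of an enzyme turned its sign under any alternative run. Of 1399 alternative values of 116 changes of single genes, 1295 kept their direction and side of the threshold, 37 (13 changes) lost a call, 12 (6 changes) gained one and 55 (33 changes) changed sign with no call in either fit. The calls that were lost or gained are named beside their genes in the report. With each replicate left out in turn, the number of enzymes called for RNA ranged from 8 to 9 in KO1, from 3 to 7 in KO2 (3 without WT replicate 1 and 3 without WT replicate 2, against 5) and from 3 to 5 in KO3 (3 without WT replicate 2). For footprints it ranged from 4 to 6 in KO1, from 1 to 3 in KO2 (1 without WT replicate 1 and 2 without KO2 replicate 1, against 4) and from 2 to 4 in KO3 (2 without WT replicate 2). DESeq2 called 1 enzyme for footprints in KO2, where it called 651 of 32278 transcripts and edgeR called 2814. Over all transcripts, too, each clone had fewer RNA and footprint calls in every run without a WT replicate. In the mean of the clones 3 enzymes were called for RNA each time and from 2 to 4 for footprints. The test between clones called 10 for RNA, 8 for footprints and 0 for TE each time. With no library left out it called 74.7%, 58.9% and 1.19% of all genes. The cause of these losses was not tested.

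With a replicate block, 5 enzymes were called for footprints in the mean of the clones, Gpi1 and Pkm being added to the 3, and the labels do not say what a shared replicate number means. Replicate differences of lines with the same number correlated between -0.002 and 0.372 over 4014 genes with only 2 numbers, which does not show pairing. RNA-seq and Ribo-seq of 1 lysate correlated from 0.111 to 0.283 in their replicate differences, and a block for the lysate changed no TE call of the 10 enzymes. The log2 TE of Gapdh ranged from -12.68 to -11.56 with 1 WT library left out and was -10.15 in the KO2 libraries and -10.89 in those of KO3. With windows of 24 or 34 nt the share of Gapdh windows with 10 or more copies was again 94.3%, and with 24 nt 0.220% of Hk2 and 0.130% of Pfkl windows had a copy. With 5 Mb instead of 10 Mb, 6 neighbour medians near 0 changed sign. Gapdh values rest on 5 footprints in WT, and KO1 replicate 2 has the fewest footprints of all, which limits what can be seen in KO1.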
